A study of Mus musculus with 11 samples.

Results

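Neuregulin 1 (Nrg1), heparin-binding EGF-like growth factor (Hbegf) and the receptors Egfr, Erbb2, Erbb3 and Erbb4 were followed in embryonic mouse hearts with and without conditional deletion of Gata4. Every probe set annotated with exactly 1 gene symbol was taken if that symbol was 1 of these 6 genes, which gave 14 of the 45037 probe sets tested. Egfr had 7 probe sets, Hbegf and Erbb3 had 2 each, and Nrg1, Erbb2 and Erbb4 had 1 each. RNA came from pooled whole hearts at embryonic day 9.5, on 1 array per sample. Arrays labelled conditional knockout (CKO) were Gata4 flox/flox; Nkx2-5 cre/+ (n = 5), with both Gata4 alleles floxed and Cre recombinase at 1 Nkx2-5 allele. Double heterozygous arrays were Gata4 flox/+; Nkx2-5 cre/+ (n = 3), with the same Cre allele and 1 floxed Gata4 allele. Control arrays were Gata4 flox/+; Nkx2-5 +/+ (n = 3), so they too carried a floxed Gata4 allele, but no Cre. Cre from the Nkx2-5 locus acts in Nkx2-5-expressing cardiac progenitors and the cells they give rise to, which include myocardium and some non-muscle cells, and the share of cells with a recombined allele was not measured here. The Cre allele also replaces 1 copy of Nkx2-5, so CKO-labelled and control hearts differ in Cre and Nkx2-5 dose as well as in Gata4. Nothing in the labels says whether replicate arrays came from different pools, so the p-values cover only variation among these arrays, part or all of which may be technical.

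ErbB receptors are tyrosine kinases that signal as pairs. NRG1 is made by the endocardium and binds ERBB3 and ERBB4, HB-EGF binds EGFR and ERBB4, and ERBB2 has no ligand of its own but is the preferred partner of the others. ERBB3 has an impaired kinase and depends on such a partner. In the mouse heart, Nrg1, Erbb2 and Erbb4 are required for trabeculation, the growth of myocardial ridges into the lumen. Erbb3 is required for the endocardial cushions, and Hbegf and Egfr limit the thickness of the forming valves.

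Values are log2(intensity + 16) after quantile normalisation, a scale whose lowest possible value is 4. Mean deposited intensity was 117.2 on CKO replicate 3 and 166.4 to 175.6 on the 10 other arrays. CKO replicates 2 and 3 also had the lowest mean correlations with their own group, 0.967 and 0.965, against 0.977 to 0.988 for the 9 other arrays. The brighter Gata4 probe set was higher, by 0.45 on the log2 scale, in CKO-labelled arrays than in controls (adjusted p = 0.0321, limma). Double heterozygous arrays also all lay above the control arrays on it (0.33, adjusted p = 0.9999). CKO-labelled against double heterozygous arrays gave 0.12 (adjusted p = 0.668). The dimmer Gata4 probe set read 8.81, 6.42, 8.65, 8.44 and 8.26 in CKO-labelled arrays 1 to 5, against 8.65, 8.4 and 8.27 in double heterozygous and 7.98, 7.98 and 8.15 in control arrays, so that CKO replicate 2 alone lay below the control arrays. Its log2 fold change was 0.08 against control (adjusted p = 0.958) and -0.32 against double heterozygous arrays (adjusted p = 0.781). The sources used here do not say whether either probe set lies in the deleted part of Gata4, so they do not check the labels. Markers of heart muscle were bright on every array, with means from 9.52 for Nkx2-5 to 13.07 for Myl7 over the 11 arrays.

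Erbb3 was the 1 gene of the 6 that passed the test, on the brighter of its 2 probe sets, and 5 of 23 alternative analyses lost that call. This probe set was 1.72-fold lower in CKO-labelled than in control arrays, and double heterozygous arrays lay between them. The ligands Nrg1 and Hbegf had lower means, and the receptors Erbb2 and Erbb4 higher means, in CKO-labelled than in control arrays, and none of these differences passed the test. Their 95% intervals on the log2 scale were -0.77 to -0.10 for Nrg1 and -0.48 to 0.050 for the brighter Hbegf probe set. For Erbb2 the interval was 0.08 to 0.72, and for Erbb4 0.18 to 0.87. Egfr had nearly equal means on its brightest probe set. Between CKO-labelled and control arrays 1 of 14 probe sets was called at an adjusted p under 0.05, where 1.4% of all probe sets were called. Called lower, the direction of Erbb3, were 0.566% of all probe sets, and called higher 0.837%.

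**Figure D1:**
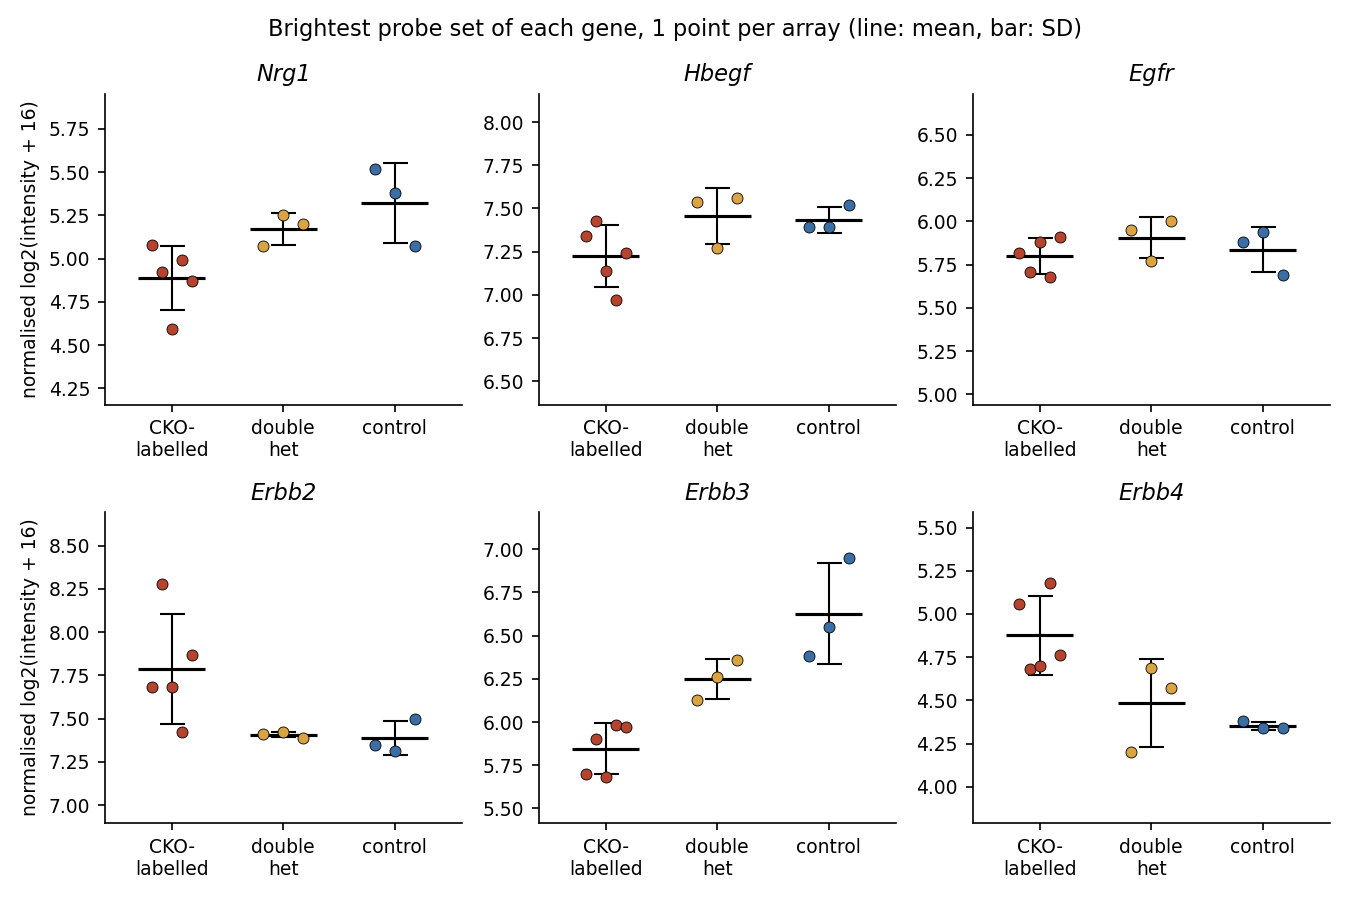
Normalised log2(intensity + 16) of the brightest probe set of each gene (vertical axes, each spanning the same range of log2 units but at its own level) in CKO-labelled (n = 5), double heterozygous (n = 3) and control (n = 3) arrays. Points are arrays, lines are means and bars are SD; for Erbb3 the 3 groups do not overlap, with CKO-labelled arrays at 5.68 to 5.98 and control arrays at 6.38 to 6.95.

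Of the ligands, Nrg1 was dim. Its probe set read 5.08, 4.92, 4.59, 4.99 and 4.87 in CKO-labelled arrays 1 to 5, against 5.07, 5.25 and 5.2 in double heterozygous and 5.52, 5.38 and 5.07 in control arrays. CKO-labelled arrays lay lowest as a group, but CKO replicate 1 and control replicate 3 met at nearly the same value. The means were 4.89 ± 0.18 in CKO-labelled, 5.17 ± 0.089 in double heterozygous and 5.32 ± 0.23 in control arrays (SD, n = 5, 3 and 3). The log2 fold change of CKO-labelled against control arrays was -0.43 (SE 0.16, 95% interval -0.77 to -0.10, adjusted p = 0.216). In deposited intensity these are values of 5.28 to 19.1 in CKO-labelled, 17.2 to 21.3 in double heterozygous and 19.5 to 27.2 in control arrays. The log2 fold change of Nrg1 depended on the offset, and was -0.79 with an offset of 1 and -0.18 with an offset of 64. Nrg1 did not pass in CKO-labelled against double heterozygous arrays (-0.28, adjusted p = 0.493) or in double heterozygous against control arrays (-0.15, adjusted p = 0.9999). In whole-heart RNA, fewer cells of a type and less RNA per cell cannot be told apart.

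Markers of the endocardium and endothelium, the source of NRG1, were read beside it. The summed intensity of 11 markers was 3454 to 4071 in CKO-labelled, 2993 to 3234 in double heterozygous and 3064 to 3222 in control arrays, and none of the 11 was at 0 on any array. Of these markers 10 of 11 had higher means in CKO-labelled than in control arrays. Kdr, the main VEGF receptor (0.68, adjusted p = 0.00678), and Cdh5, vascular endothelial cadherin (0.63, adjusted p = 0.0189), were called higher. Tek, the angiopoietin receptor, was called lower (-0.65, adjusted p = 0.00150). Among all genes 1.2% were called higher and 0.863% lower. The part of these markers in the Nrg1 values was not tested.

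Hbegf had 2 probe sets, both with lower means in CKO-labelled than in control arrays. The brighter read 7.34, 7.43, 7.14, 6.97 and 7.24 in CKO-labelled arrays 1 to 5, against 7.54, 7.27 and 7.56 in double heterozygous and 7.39, 7.39 and 7.52 in control arrays. CKO replicates 3, 4 and 5 lay below all arrays of the other groups, and CKO replicates 1 and 2 lay among them. The log2 fold change was -0.21 against control (SE 0.12, 95% interval -0.48 to 0.050, adjusted p = 0.503) and -0.24 against double heterozygous arrays (SE 0.12, adjusted p = 0.473). Double heterozygous and control arrays differed by 0.02 (95% interval -0.27 to 0.32). The dimmer probe set was at 5.38 to 6.21 in CKO-labelled, 5.75 to 6.03 in double heterozygous and 5.89 to 6.16 in control arrays. Its log2 fold change against control was -0.40 (SE 0.18, adjusted p = 0.356), with CKO replicate 2 at 6.21 as the highest of all 11 arrays.

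Among the receptors, Erbb3 separated the 3 genotypes. Its brighter probe set read 5.70, 5.90, 5.68, 5.98 and 5.97 in CKO-labelled arrays 1 to 5, against 6.13, 6.26 and 6.36 in double heterozygous and 6.38, 6.55 and 6.95 in control arrays. Every CKO-labelled array lay below every double heterozygous array, and every double heterozygous array below every control array. The means were 5.85 ± 0.15 in CKO-labelled, 6.25 ± 0.11 in double heterozygous and 6.63 ± 0.29 in control arrays (SD, n = 5, 3 and 3). Of all probe sets 0.222% had the 3 groups apart in this order, and 0.229% in the opposite order. The fall in CKO-labelled against control arrays was -0.78 on the log2 scale (SE 0.15, 95% interval -1.10 to -0.46, adjusted p = 0.0171). The F-test over the 3 groups also called it (adjusted p = 0.0422), with 0.961% of all probe sets called by that test. That call was kept without CKO replicate 2 or 3 and lost without any 1 of the 9 other arrays.

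On the deposited scale Erbb3 read 39.0, 42.6, 24.2, 54.8 and 54.0 in CKO-labelled arrays 1 to 5, against 53.4, 59.9 and 66.3 in double heterozygous and 65.6, 82.1 and 116.6 in control arrays. Here too all CKO-labelled arrays lay below all control arrays, while CKO replicates 4 and 5 lay just above double heterozygous replicate 1. Neither step of the series passed by itself. CKO-labelled against double heterozygous arrays gave -0.41 (SE 0.15, 95% interval -0.72 to -0.09, adjusted p = 0.288). Double heterozygous against control arrays gave -0.38 (SE 0.17, 95% interval -0.73 to -0.02, adjusted p = 0.9999), and -0.22 without control replicate 3. The dimmer Erbb3 probe set was near the lowest possible value, with means of 4.30, 4.40 and 4.41 in CKO-labelled, double heterozygous and control arrays, and was not called (-0.11, SE 0.15, adjusted p = 0.825).

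The Erbb3 call was kept without CKO replicates 2 and 3 together (-0.75, adjusted p = 0.0186). It was lost without control replicate 3, the array with the highest Erbb3 (-0.62, adjusted p = 0.131), without control replicate 2 (-0.82, adjusted p = 0.0836) and on the deposited scale (-0.82, adjusted p = 0.180). Over 23 alternatives the adjusted p ranged from 0.00360 to 0.180. As the mean of both Erbb3 probe sets the log2 fold change was -0.45 (adjusted p = 0.0498). On the brighter probe set it depended on the offset, and was -0.98 with an offset of 1 and -0.48 with an offset of 64.

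**Figure D2:**
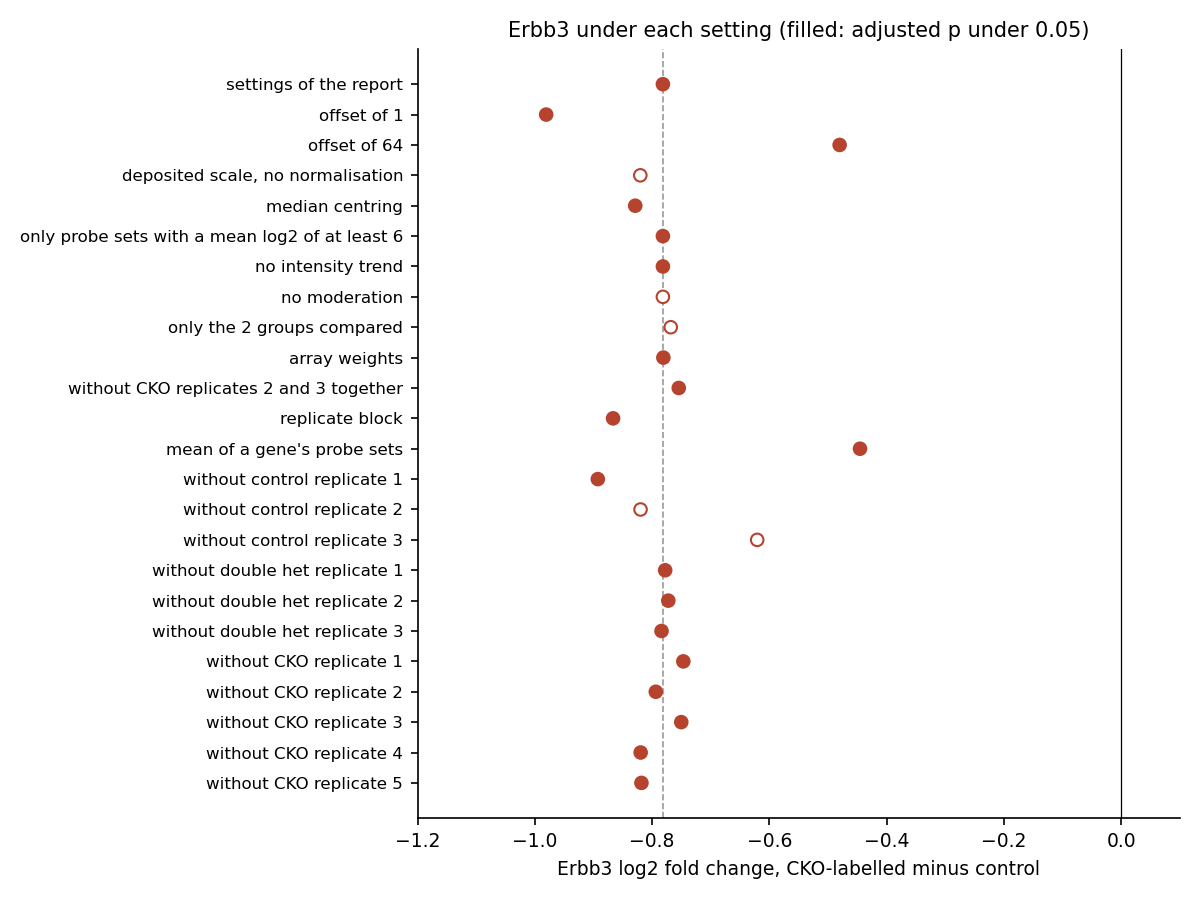
Log2 fold change of Erbb3 in CKO-labelled minus control arrays (horizontal axis) under the settings of the report and 23 alternatives (vertical axis); filled points have an adjusted p under 0.05 and the dashed line marks -0.78. All values are below 0, from -0.98 to -0.45, and 5 of the 23 alternatives lost the call.

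Outside heart muscle, Erbb3 is known from neural crest and cushion mesenchyme, and marker lists of these cells and of the proepicardium, which gives rise to the epicardium, were read beside it. The summed intensity of 6 proepicardial markers was 332.1 to 864.3 in CKO-labelled, 502.9 to 774.0 in double heterozygous and 1022 to 1141 in control arrays. Both Cre groups lay below control and overlapped each other, whereas for Erbb3 they did not overlap. Of the 6 markers 5 had lower means in CKO-labelled than in control arrays and 3 were called lower, where 0.863% of all genes were called lower. The 3 markers were Tcf21, a transcription factor of epicardial progenitors (-1.31, adjusted p = 0.0171), Lrrn4, a gene of mesothelial cells (-1.197, adjusted p = 0.00619), and Upk1b, a uroplakin of the same cells (-0.997, adjusted p = 0.0151). Wt1, a further transcription factor of these cells, was at 0.23 (adjusted p = 0.649). In double heterozygous against control arrays 6 of 6 had lower means (median -0.69, against -0.0019 over all genes) and 0 were called. In CKO-labelled against double heterozygous arrays 5 of 6 had lower means (median -0.34, against -0.015 over all genes). There 0 were called, where 0.517% of all genes were, and Wt1 was at 0.64 (adjusted p = 0.169).

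The 4 measured genes of the neural crest list summed to 356.4 to 827.4 in CKO-labelled, 400.9 to 472.2 in double heterozygous and 508.6 to 577.8 in control arrays. All double heterozygous arrays and CKO replicates 1, 2 and 3 lay below the control arrays, and CKO replicate 5 lay above them. Ednrb, an endothelin receptor of neural crest cells and of other tissues, was called lower in CKO-labelled than in control arrays (-0.71, adjusted p = 0.0432), where 0.863% of all genes were. The 3 other genes of the list had higher means. Of the defining genes, Sox10 averaged 35.0, 28.2 and 26.9 and Foxd3 7.14, 2.66 and 4.09 in deposited intensity in CKO-labelled, double heterozygous and control arrays. Cushion mesenchyme markers summed to 784.6 to 1210 in CKO-labelled, 1036 to 1276 in double heterozygous and 1077 to 1254 in control arrays. In CKO-labelled against control arrays 0 of 7 were called, 5 had lower and 2 higher means. The lowest were Postn (-0.94, adjusted p = 0.321), Twist1 (-0.64, adjusted p = 0.116) and Sox9 (-0.54, adjusted p = 0.116), and the highest was Snai2 (0.33, adjusted p = 0.498). Prrx2 (0.06) and Pdgfra (-0.12) were the brightest of the 7 and weighed most in the sum. No marker of these 3 lists was at 0 on any array, and the part of these cells in the Erbb3 result was not tested.

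**Figure D3:**
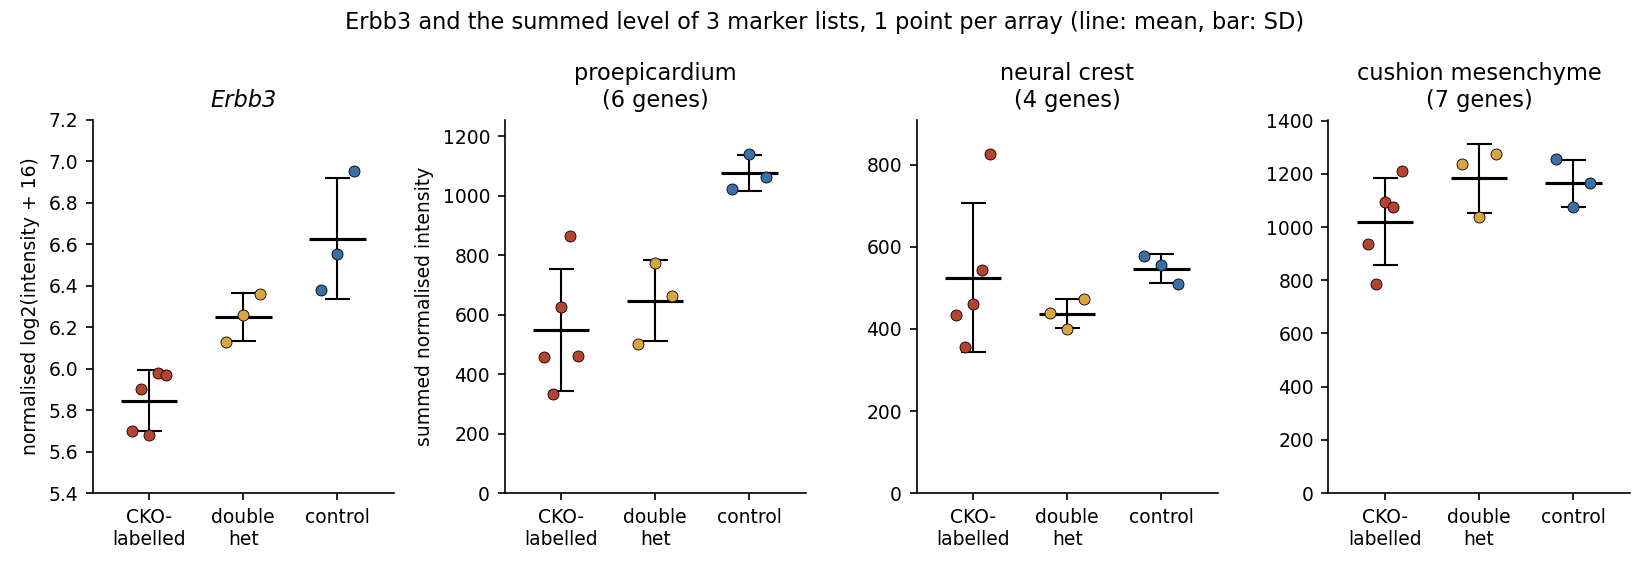
Erbb3 as normalised log2(intensity + 16) (left) and the summed normalised linear intensity of 3 marker lists (right, axes from 0) in CKO-labelled (n = 5), double heterozygous (n = 3) and control (n = 3) arrays. Points are arrays, lines are means and bars are SD; proepicardial markers stay at or below 864.3 in all arrays with Cre and above 1022 in all control arrays, while the other lists overlap between CKO-labelled and control arrays.

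Erbb2, the shared partner receptor, read 7.68, 8.28, 7.68, 7.42 and 7.87 in CKO-labelled arrays 1 to 5, against 7.41, 7.42 and 7.39 in double heterozygous and 7.35, 7.31 and 7.50 in control arrays. CKO replicate 2 stood highest, and CKO replicate 4 lay within the control range. The means were 7.79 ± 0.32 in CKO-labelled, 7.41 ± 0.018 in double heterozygous and 7.39 ± 0.10 in control arrays (SD, n = 5, 3 and 3). The log2 fold change was 0.40 against control (SE 0.15, 95% interval 0.08 to 0.72, adjusted p = 0.251) and 0.38 against double heterozygous arrays (SE 0.15, 95% interval 0.06 to 0.70, adjusted p = 0.330). Without CKO replicate 2 the value against control was 0.27, and without CKO replicates 2 and 3 together the value against double heterozygous arrays was 0.25. Double heterozygous and control arrays differed by 0.02 (SE 0.17, 95% interval -0.34 to 0.38).

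Epithelial markers had higher means in CKO-labelled than in control arrays for 7 of 7 genes, and epithelia also express Erbb2. Their summed intensity over 7 genes was 3310 to 4137 in CKO-labelled, 1902 to 2349 in double heterozygous and 1710 to 1815 in control arrays. That sum was made up mostly of keratins, of which Krt8, Krt18 and Krt19 were called higher in CKO-labelled arrays than in controls, where 1.2% of all genes were. The rest of the list was not called against control. Epcam was at 0.04 (adjusted p = 0.969), Foxa2 at 0.06 (0.928), Cdh1 at 0.14 (0.857) and Shh at 0.31 (0.766). Against double heterozygous arrays 3 of the 7 genes had higher and 4 lower means (median -0.012), and Krt8 and Krt19 were called higher (0.407% of all genes). In double heterozygous against control arrays 7 of 7 had higher means (median 0.18) and 0 were called. The defining endodermal gene Foxa2 was near the bottom of the scale, with a deposited mean of 4.39 in CKO-labelled, 4.28 in double heterozygous and 3.10 in control arrays and a value of 0 on 1 array. Epcam averaged 17.0, 18.3 and 15.03 in the same order. The part of these markers in the Erbb2 values was not tested.

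Erbb4, the NRG1 receptor of heart muscle, was among the dimmer probe sets, with its mean at the 25.8th percentile of all probe sets. It read 5.06, 4.68, 4.70, 5.18 and 4.76 in CKO-labelled arrays 1 to 5, against 4.20, 4.69 and 4.57 in double heterozygous and 4.38, 4.34 and 4.34 in control arrays. All CKO-labelled arrays lay above all control arrays, and double heterozygous arrays overlapped the CKO-labelled ones. The log2 fold change against control was 0.53 (SE 0.16, 95% interval 0.18 to 0.87, adjusted p = 0.136). In deposited intensity the values were 18.8, 9.32, 6.70, 24.4 and 13.9 in CKO-labelled, 1.74, 8.30 and 8.13 in double heterozygous and 3.54, 4.98 and 5.2 in control arrays. Added to the intensities in place of 16, an offset of 1 gave 1.39 (adjusted p = 0.165), and array weights gave 0.56, which passed (adjusted p = 0.0314). Its adjusted p over 22 alternatives ranged from 0.0314 to 0.377. Against double heterozygous arrays it was 0.39 (SE 0.16, adjusted p = 0.345), and double heterozygous against control arrays gave 0.13 (SE 0.18). Without double heterozygous replicate 1, the lowest array, Erbb4 was at 0.25 in CKO-labelled against double heterozygous and 0.28 in double heterozygous against control arrays, and without double heterozygous replicate 2 double heterozygous against control arrays gave 0.034. Heart muscle markers summed to 53657 to 56988 in CKO-labelled, 54729 to 56421 in double heterozygous and 54817 to 55109 in control arrays. In CKO-labelled against control arrays 1 of 10, Myh7, was called higher (0.27), where 1.2% of all genes were. Of the 10 genes 4 had higher and 6 lower means. Nkx2-5 (-0.53, adjusted p = 0.0990) and Tnni1 (-0.24, adjusted p = 0.0732) had all CKO-labelled arrays below all control arrays. Myh7 and Ryr2 (0.26, adjusted p = 0.139) had all of them above. Of all probe sets 5.81% were apart in the lower and 3.93% in the higher direction. The Cre allele replaces 1 copy of Nkx2-5, and for this gene all double heterozygous arrays also lay below all control arrays (-0.39, adjusted p = 0.9999). CKO-labelled against double heterozygous arrays gave -0.14 for Nkx2-5 (adjusted p = 0.747).

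Egfr, the receptor of EGF and HB-EGF, did not pass on any of its 7 probe sets. The brightest read 5.82, 5.71, 5.88, 5.68 and 5.91 in CKO-labelled arrays 1 to 5, against 5.95, 5.77 and 6.0 in double heterozygous and 5.88, 5.94 and 5.69 in control arrays, and the 3 groups overlapped. Its log2 fold change was -0.03 against control (SE 0.13, 95% interval -0.31 to 0.24), -0.11 against double heterozygous arrays (95% interval -0.39 to 0.17), and 0.07 for double heterozygous against control arrays (95% interval -0.24 to 0.38). The 6 other Egfr probe sets had means over all arrays of 4.22 to 5.69. The brightest of these 6, at 5.69, was nearly as bright as the first at 5.84, and is the Egfr probe set whose CKO-labelled arrays (5.67 to 6.54) lay above all control arrays (5.37 to 5.61), with an adjusted p of 0.436. They disagreed in direction, with 3 higher and 3 lower in CKO-labelled arrays than in controls, from -0.35 to 0.38 (lowest adjusted p = 0.404).

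**Figure D4:**
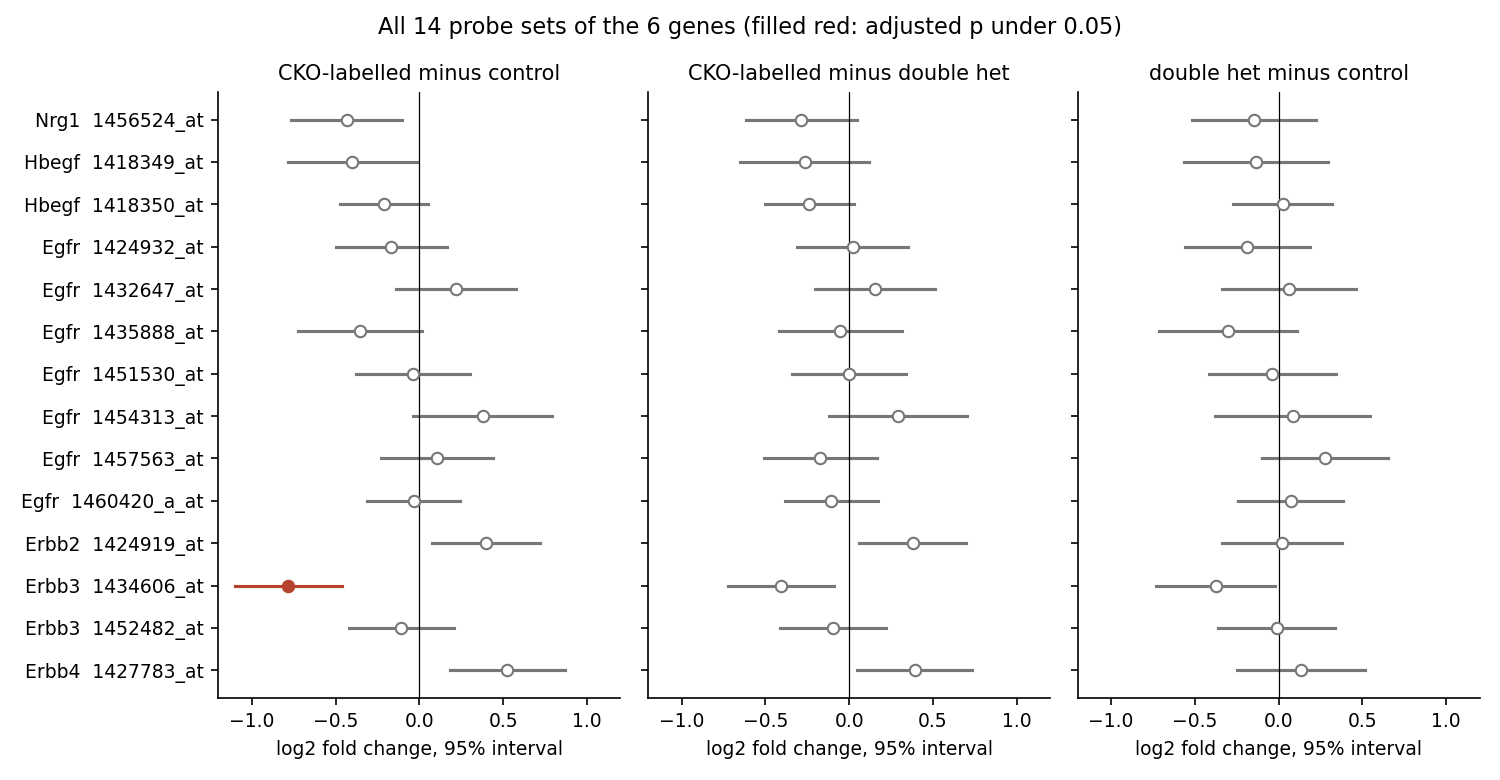
Log2 fold change (points) with its 95% interval (lines) for all 14 probe sets of the 6 genes in CKO-labelled minus control, CKO-labelled minus double heterozygous and double heterozygous minus control arrays. The 1 filled red point, the brighter Erbb3 probe set at -0.78 in CKO-labelled minus control arrays, is the 1 call; the Erbb2 and Erbb4 intervals lie above 0 in both comparisons with CKO-labelled arrays.

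Across the 14 probe sets, 9 had lower and 5 higher means in CKO-labelled than in control arrays, with a median log2 fold change of -0.07, against -0.0079 over all probe sets. At an unadjusted p under 0.05 there were 5 of 14, where 13.2% of all probe sets passed that limit. Groups did not overlap for 3 of 14, Erbb3 lower and Erbb4 and 1 Egfr probe set higher, against 9.73% of all probe sets (5.81% lower and 3.93% higher). Between CKO-labelled and double heterozygous arrays 0 of 14 were called by limma, where 0.349% of all probe sets were called (0.0622% lower and 0.286% higher). Of the 14, 3 had an unadjusted p under 0.05 (12% of all probe sets) and 2 did not overlap (7.52% of all probe sets, 4.45% lower and 3.07% higher), Erbb2 higher and Erbb3 lower. The Erbb2 groups were apart by less than the second decimal, 7.42 on each side. Between double heterozygous and control arrays 0 of 14 and 0% of all probe sets were called by limma. Erbb3 alone had an unadjusted p under 0.05 there, where 3.19% of all probe sets did, and 2 of 14 did not overlap (10.3% of all probe sets, 5.66% lower and 4.69% higher), Erbb3 lower and 1 Egfr probe set higher. No alternative called a member in either of these comparisons. The comparisons share arrays, so their values are not independent.

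Other genes of the pathway were read in 6 lists of 75 genes, of which 67 had a probe set with 1 symbol. In CKO-labelled against control arrays 3 of 67 were called, all higher (4.48%, against 2.06% of all genes), with a median log2 fold change of 0.10 against -0.02 over all genes. In CKO-labelled against double heterozygous arrays 2 of 67 were called (2.99%, against 0.517% of all genes), and in double heterozygous against control arrays 0 of 67 (0% of all genes, with 1 of 67 at an unadjusted p under 0.05).

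Among 10 genes that restrain the receptors, Cblb, a ubiquitin ligase that removes activated receptors, was called higher. It read 7.84, 8.0, 7.92, 8.09 and 8.18 in CKO-labelled arrays 1 to 5, against 7.69, 7.73 and 7.84 in double heterozygous and 7.54, 7.59 and 7.56 in control arrays, so that CKO-labelled and control arrays did not overlap. Its log2 fold change against control was 0.45 (SE 0.10, adjusted p = 0.0416), and 15 of 23 alternatives lost the call, with values of 0.30 on the deposited scale and 0.29 after median centring. In double heterozygous against control arrays Cblb had the smallest p of its list (0.19, adjusted p = 0.9999). Errfi1, an inhibitor of ErbB kinases, stood at 7.37 to 8.29 in CKO-labelled, 7.41 to 7.59 in double heterozygous and 7.40 to 7.46 in control arrays. CKO replicate 3 was its lowest array, and it did not pass against double heterozygous arrays (0.45, SE 0.16, adjusted p = 0.272). Without CKO replicate 3 it was 0.59 there and passed (adjusted p = 0.0238, with 0.0117 to 0.750 over all its alternatives).

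Of 10 early response genes, which signals of these receptors and many other stimuli induce, 8 had higher means in CKO-labelled than in control arrays (median 0.24) and Fos was called. Fos read 7.48, 7.58, 6.92, 8.14 and 7.47 in CKO-labelled, 7.03, 6.98 and 6.82 in double heterozygous and 6.66, 6.53 and 6.72 in control arrays, with CKO replicate 4 highest. Its log2 fold change against control was 0.88 (SE 0.19, adjusted p = 0.0356), lost in 13 of 23 alternatives. Against double heterozygous arrays Fos was at 0.57 (adjusted p = 0.250), and without CKO replicate 3 it was at 0.72 and passed (adjusted p = 0.0427, with 0.0314 to 0.670 over all its alternatives). Spry4, a feedback inhibitor of receptor tyrosine kinase signalling, had the smallest p of the list in double heterozygous against control arrays, at 0.29 (adjusted p = 0.9999).

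Trabeculation genes included 2 matrix genes that moved in opposite directions. Vcan, which encodes the proteoglycan versican of the cardiac jelly, averaged 11.19 ± 0.10 in CKO-labelled, 10.82 ± 0.034 in double heterozygous and 10.76 ± 0.037 in control arrays (SD, n = 5, 3 and 3). It was called higher against control (0.43, SE 0.066, adjusted p = 0.00375) and against double heterozygous arrays (0.38, SE 0.066, adjusted p = 0.0215). Has2, the hyaluronan synthase of the cardiac jelly, averaged 7.59 ± 0.12 in CKO-labelled, 8.11 ± 0.091 in double heterozygous and 7.92 ± 0.11 in control arrays. Has2 was called lower against double heterozygous arrays (-0.52, SE 0.10, adjusted p = 0.0431) and did not pass against control (-0.33, adjusted p = 0.144). The calls against double heterozygous arrays were lost in 11 of 23 alternatives for Vcan and 13 for Has2, and the Vcan call against control in 4. After median centring Vcan was at 0.27 against control (adjusted p = 0.233) and 0.21 against double heterozygous arrays (adjusted p = 0.395), with adjusted p from 0.000287 to 0.592 and from 0.00514 to 0.685 over all alternatives. On the deposited scale Vcan was at 0.28 against control. As the mean of its probe sets Vcan was at 0.29 against control (adjusted p = 0.221) and 0.22 against double heterozygous arrays (adjusted p = 0.439), without a call. Of the 3 pathway calls against control, 1 was left without any 1 control array, any 1 double heterozygous array or CKO replicate 5, and 5 were made without CKO replicate 2. Of the 2 calls against double heterozygous arrays, 0 were left without any 1 double heterozygous array or CKO replicate 5, and 1 without any 1 control array or CKO replicate 4, while 4 were made without CKO replicate 3. Nppa, the atrial natriuretic peptide of trabecular and atrial muscle, was at -0.20 in double heterozygous against control arrays (adjusted p = 0.9999), with values of -0.32 and -0.13 without double heterozygous replicates 2 and 3 in turn.

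The remaining lists had 0 called in any comparison. Of 8 further ligands, Nrg3 had the smallest p in CKO-labelled against control arrays (0.30, adjusted p = 0.541). CKO replicate 3 read 5.22 for Nrg3 and the 4 other CKO-labelled arrays 4.3 to 4.6, and without it the value was 0.14. Tgfa, a ligand of EGFR, read 5.64 to 5.94 in CKO-labelled, 5.09 to 5.56 in double heterozygous and 5.50 to 5.77 in control arrays, with all CKO-labelled above all double heterozygous arrays (0.49, SE 0.15, adjusted p = 0.186). In double heterozygous against control arrays Tgfa was at -0.29 (adjusted p = 0.9999), and at -0.17 without double heterozygous replicate 2. Of 8 genes with a part in the release of ligands from the membrane, Adam19 was at 0.20 in CKO-labelled against control arrays (adjusted p = 0.445). Rhbdf2 was at 0.19 in CKO-labelled against double heterozygous arrays (-0.0056 without double heterozygous replicate 2 and 0.32 without replicate 1). Adam12 was at 0.19 in double heterozygous against control arrays. Of 17 adaptor and relay genes, Gab1, a docking protein that recruits phosphatase and kinase partners to active receptors, was at -0.35 in CKO-labelled against control arrays (SE 0.11, adjusted p = 0.147). CKO replicate 2 read 8.56 for Gab1, within the control range of 8.49 to 8.66, and CKO replicates 1, 3, 4 and 5 read 8.09, 8.14, 8.1 and 8.2. Without CKO replicate 2 Gab1 was at -0.44 and passed (adjusted p = 0.0123, with 0.00823 to 0.424 over all its alternatives). Src, a tyrosine kinase, was at 0.27 in CKO-labelled against double heterozygous arrays, and Pik3ca, a catalytic subunit of phosphoinositide 3-kinase, at 0.29 in double heterozygous against control arrays (0.15 without double heterozygous replicate 2).

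**Figure D5:**
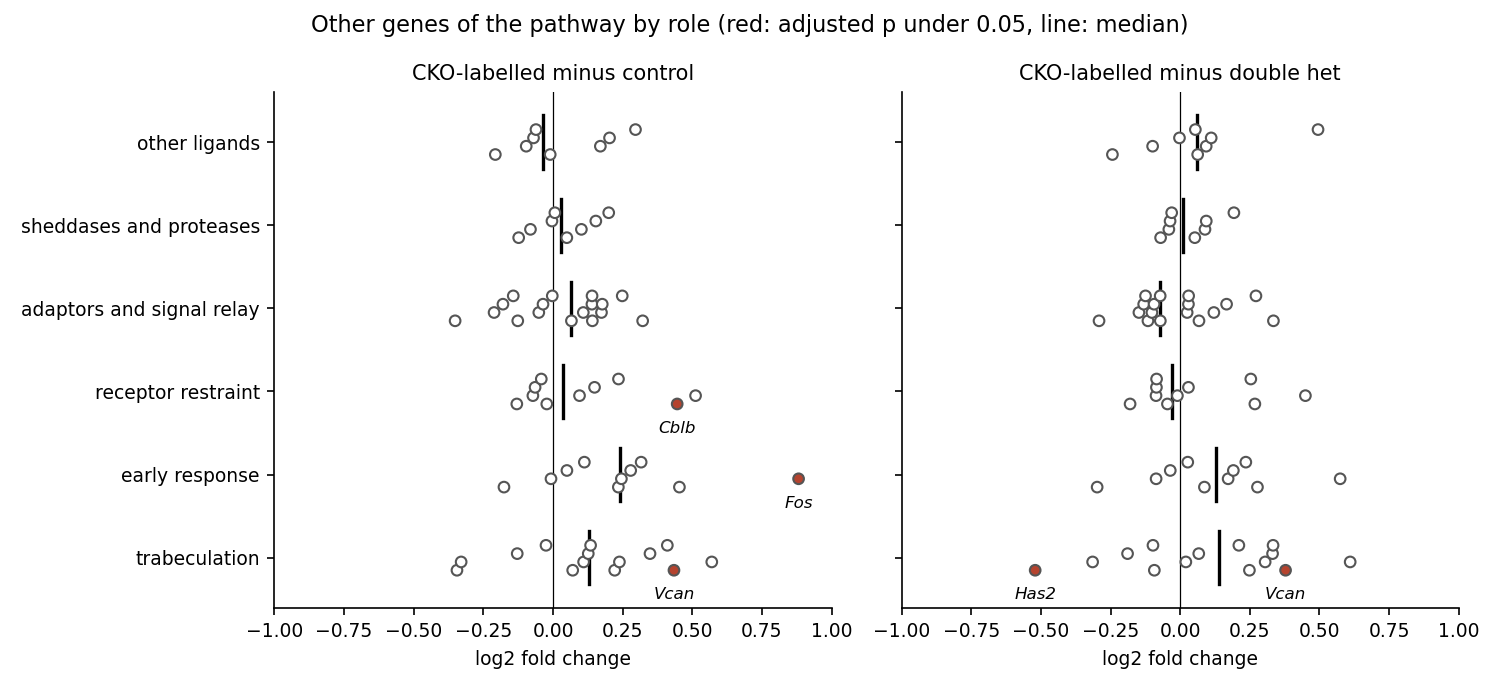
Log2 fold change (horizontal axis) of 67 other pathway genes in 6 lists by role (vertical axis) for CKO-labelled minus control and CKO-labelled minus double heterozygous arrays; each circle is a gene, lines are list medians and red circles passed an adjusted p of 0.05. Called genes are Cblb, Fos and Vcan against control and Vcan and Has2 against double heterozygous arrays.

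The 6 genes did not all vary in the same direction over the 11 arrays. Values of these arrays share genotype groups and array quality, so correlations are given as a description. Erbb3 and Erbb4 ran in opposite directions (Pearson r = -0.65, Spearman rho = -0.69), as did Hbegf and Erbb4 (r = -0.74, rho = -0.80) and Nrg1 and Erbb2 (r = -0.59, rho = -0.85). Without CKO replicates 2 and 3 these pairs had r = -0.70, -0.79 and -0.72 in the same order. Nrg1 and Erbb3 ran together (r = 0.60, rho = 0.66), less so without CKO replicates 2 and 3 (r = 0.41). Egfr and Erbb3 had r = -0.03 (rho = 0.082).

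Among 6320 genes with a mean of at least 7, the pattern most like that of Erbb3 was that of Med14, a subunit of the Mediator complex (r = 0.97, rho = 0.95), then Psme4, a proteasome activator (r = 0.94), and Pdlim1, a cytoskeletal PDZ-LIM protein (r = 0.93). Of these genes 0.142% reached r of 0.9 with Erbb3. Pdlim1 was itself called lower in CKO-labelled than in control arrays (-0.35, adjusted p = 0.0165). Erbb2 was most like Sin3b, a transcriptional corepressor (r = 0.96), Hrc, a calcium-binding protein of the sarcoplasmic reticulum (r = 0.96), and Tie1, an endothelial receptor (r = 0.96), and 0.617% of genes reached 0.9 with it. Without CKO replicates 2 and 3 the value for Hrc was 0.90. Erbb4 was most like Pawr (r = 0.96), Sgms1, a sphingomyelin synthase (r = 0.92), and Nabp1 (r = 0.90). Nrg1 was most like Sacm1l, a phosphoinositide phosphatase (r = 0.95), 2310057M21Rik (r = 0.92) and Mcur1 (r = 0.91). Hbegf was most like Naa60, an acetyltransferase (r = 0.95), Rnd2, a small GTP-binding protein (r = 0.92), and Txnl4a (r = 0.91). Egfr had no gene at 0.9, and its nearest were Hexim1 (r = 0.81), Srp68 (r = 0.80) and Hnrnpd (r = 0.78).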

How the data were processed

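The authors' deposited values are linear intensities, 1 per probe set and array, and per the submitters' processing notes PLIER summarised the probes. The sources used here give neither its settings, nor the scaling between arrays, nor detection calls. An offset of 16 was added and log2 taken, which understates changes of dim probe sets. Array medians spanned 0.465, and arrays were quantile normalised. After leaving out 64 control probe sets, limma 3.58.1 in R 4.3.3 fitted 1 mean per genotype to 45037 probe sets on 11 arrays, with intensity trend. P-values are two-sided and Benjamini-Hochberg adjusted over all probe sets in each comparison, and called under 0.05. The number of arrays limits the precision. No filter was set, and 3 of the 14 member probe sets averaged at least 6.

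Symbols came from the platform annotation (34945 probe sets with 1, 932 with several, 9160 with none). A gene's representative is its brightest probe set, passing over _x_at and _s_at where possible. Members, lists and tests were chosen with earlier results of these data known. Named were all members, the called genes of each pathway list or else that with the smallest p, and the 3 genes most correlated with each member. No 2 arrays shared more than 0.828% identical values. The fit was tested on simulated data.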

Additional observations from a re-analysis of the deposited data

Results flagged for a closer look

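Dixon's ratio, the gap of an extreme array to its neighbour over the range of the group, was computed for the 5 CKO-labelled arrays on 29 probe sets (all 14 of the members and 15 of named pathway genes), and about 5% of such groups exceed the limit of 0.71 by chance. An Egfr probe set exceeded it with a ratio of 0.937, because CKO replicate 3 read 6.54 and the 4 other CKO-labelled arrays 5.67 to 5.72. That probe set is 1 of the 3 members whose CKO-labelled and control arrays did not overlap. Gab1 exceeded it with a ratio of 0.762, because CKO replicate 2 read 8.56 and the 4 other CKO-labelled arrays 8.09 to 8.20.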

How the results depend on the processing

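Over 23 alternatives the 6 member genes gave 405 fold changes in 3 comparisons, of which 388 kept their direction and side of the threshold, 5 lost the call (all Erbb3 in CKO-labelled against control arrays), 1 gained it (Erbb4) and 11 changed sign. The member probe sets called in CKO-labelled against control arrays were 1 in the report, 0 on the deposited scale, without moderation and in the fit of those 2 groups alone, 2 with array weights, and 0 to 1 without single arrays (0 without control replicate 2 or 3). The F-test called 1, and 0 on the deposited scale, without intensity trend, without moderation, with the replicate block and with probe sets averaged per gene, and 0 to 1 without single arrays (1 without CKO replicate 2 or 3, and 0 without any 1 of the 9 others). Pathway genes called in CKO-labelled against control arrays were 3, and 0 after median centring, without intensity trend and on the deposited scale, 1 without moderation, with those 2 groups alone and with the replicate block, 9 with array weights, 6 without CKO replicates 2 and 3 together, and 1 to 5 without single arrays (1 without any 1 control or double heterozygous array or CKO replicate 5, and 5 without CKO replicate 2). Against double heterozygous arrays they were 2, and 0 on the deposited scale, without intensity trend, without moderation, with those groups alone and with the replicate block, 1 with median centring and with probe sets averaged per gene, 4 with array weights and without CKO replicates 2 and 3 together, and 0 to 4 without single arrays (0 without any 1 double heterozygous array or CKO replicate 5, and 4 without CKO replicate 3). Sign changes were all among values not called: with probe sets averaged per gene Egfr was at 0.015 in CKO-labelled against control, 0.020 against double heterozygous and -0.0050 in double heterozygous against control arrays, where Hbegf was at -0.056 and Pik3ca at -0.020. On the deposited scale Erbb2 was at -0.018 and Hbegf at -0.016 in that comparison. Without single arrays Egfr ranged from -0.11 to 0.016 in CKO-labelled against control arrays and from -0.0014 to 0.14 in double heterozygous against control arrays, where Erbb2 ranged from -0.021 to 0.074 and Hbegf from -0.027 to 0.12, with -0.019 also below 0. Rhbdf2 ranged from -0.0056 to 0.32 in CKO-labelled against double heterozygous arrays. Erbb3 was at -0.78 without moderation and -0.77 with those 2 groups alone, both without the call. Probe sets called on the whole array ranged from 92 to 2393 in CKO-labelled against control arrays (632 in the report), from 1 to 650 against double heterozygous arrays (157), from 0 to 8 in double heterozygous against control arrays (0) and from 81 to 1599 by the F-test (433). The causes were not tested. The fit of 2 groups alone was not run for the F-test, and leaving out probe sets with a mean below 6 leaves no value for Nrg1, Egfr and Erbb4. Arrays with the same replicate number were not treated as pairs in the fit of the report. Their deviations from the group means correlated at -0.056 to 0.15, over 0.1 in 1 of 9 pairs. Between groups, arrays with different numbers correlated at -0.14 to 0.12, and whether arrays were paired is not known. With the number as a block, which drops CKO replicates 4 and 5 from the comparison, Erbb3 was at -0.87 in CKO-labelled against control arrays (adjusted p = 0.0446).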
